A study of Mus musculus with 11 samples.

Results

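The genes described here are 10 genes of the inflammasome, of pyroptosis and of the IL-1 family, Nlrp3, Pycard, Casp1, Casp4, Gsdmd, Il1a, Il1b, Il1rn, Il18 and Il18bp, among 25677 genes listed in the count table. They were taken from a list of symbols, and all 10 were found. Kidneys came from 11 female mice of 21 weeks of age, with 1 library of total RNA per mouse. The control group (Ctr) held 3 C57BL/6J mice, which carry the genotype C57B6 in the labels. The model group (Lpr) held 4 MRL/lpr mice without DNase I, and the treated group (DNase) held 4 MRL/lpr mice that received DNase I, an enzyme that cuts DNA outside cells, each day into the peritoneum from week 17 on. All 8 MRL/lpr mice carry the lpr mutation of Fas on the MRL background and develop a lupus-like nephritis, whereas the controls are of another strain, so that strain and disease cannot be told apart in any difference from Ctr.

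An inflammasome is a protein complex that forms in the cytosol when a sensor such as NLRP3 meets a sign of damage or infection. The sensor gathers the adaptor ASC, encoded by Pycard, which gathers caspase-1, and caspase-1 then cuts the precursors of IL-1 beta and IL-18 and the pore protein gasdermin D. Pores of gasdermin D release the cytokines and can end in a lytic cell death called pyroptosis. In the kidney these genes are known mainly from macrophages and other myeloid cells, while IL-18 is also made by tubular epithelium. RNA levels show neither the cutting of these proteins nor pore formation.

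Library totals ran from 33469858 to 38460873 counted reads, and levels are given as CPM, the count scaled by library total and TMM factor. The smallest level taken as present was above 3 counts, and this floor covers counting error only. Markers of the proximal tubule, 8 genes such as Lrp2 and Slc34a1, summed to between 5275 and 12219 CPM in every kidney, which fits the tissue label. In Lpr 3 short genes were read relatively more than long ones, with a slope of -0.39 in log2 level per doubling of gene length, against -0.04 to 0.08 in the other kidneys. Since whole kidney was measured, more cells of a type and more RNA per cell cannot be told apart. Nothing in the labels says whether the mice of a group shared a cage or a litter.

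Windows of up to 250 bases upstream of the start were available from RefSeq (GRCm38.p6) for 9 of the 10 genes, with several starts for some, and not for Gsdmd. Each window was searched on both strands for the kappaB motif bound by NF-kappaB, for the interferon-response element and for the STAT motif TTCNNNGAA, and on the gene's own strand alone for the TATA box TATAAA. In this search the 4 genes printed here held a match. They are shown because they carry the matches, which are in capitals, and they run 5′ to 3′ on the gene's own strand up to the annotated gene start.
Il1a, chr2:129309973-129310222, minus strand: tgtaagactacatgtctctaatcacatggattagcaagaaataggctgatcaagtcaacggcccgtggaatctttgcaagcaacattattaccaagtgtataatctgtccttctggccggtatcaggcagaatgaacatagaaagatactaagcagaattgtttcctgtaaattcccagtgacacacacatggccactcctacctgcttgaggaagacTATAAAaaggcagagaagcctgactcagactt
Il1b, chr2:129371140-129371389, minus strand: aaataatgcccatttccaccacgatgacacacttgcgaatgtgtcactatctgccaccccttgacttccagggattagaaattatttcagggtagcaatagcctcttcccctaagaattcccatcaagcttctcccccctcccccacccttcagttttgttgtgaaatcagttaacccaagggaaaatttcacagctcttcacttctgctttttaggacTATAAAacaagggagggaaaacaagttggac
Casp4, chr9:5308599-5308827, plus strand: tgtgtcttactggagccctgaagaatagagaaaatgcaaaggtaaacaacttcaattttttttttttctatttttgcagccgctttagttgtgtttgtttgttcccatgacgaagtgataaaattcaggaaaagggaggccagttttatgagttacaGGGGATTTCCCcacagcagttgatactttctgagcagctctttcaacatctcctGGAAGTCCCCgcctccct
Nlrp3, chr11:59541319-59541567, plus strand: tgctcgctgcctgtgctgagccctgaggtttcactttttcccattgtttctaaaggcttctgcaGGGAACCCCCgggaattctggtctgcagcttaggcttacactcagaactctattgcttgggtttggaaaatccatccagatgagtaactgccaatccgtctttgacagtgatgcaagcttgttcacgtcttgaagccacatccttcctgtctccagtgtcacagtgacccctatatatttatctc
The cytokine genes Il1a and Il1b both held a TATA box, whose first base lay 32 and 31 bases before the start. Casp4 held 2 separate kappaB stretches, the longer of which contains overlapping matches, and Nlrp3 held 1. Of all 32851 mouse promoter windows of the same length, 7.59% held TATAAA on the gene's own strand, 7.25% the kappaB motif, 2.98% the interferon-response element and 7.02% the STAT motif. A match describes these letters and is not a measured binding site.

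The comparison of Lpr with Ctr asks how these genes differ between diseased and control kidneys. Transcripts of the inflammasome sensor, both inflammatory caspases, the pore protein, Il1b, Il18 and the inhibitors Il1rn and Il18bp were higher in Lpr, whereas the adaptor gene Pycard and the cytokine gene Il1a did not pass the test. In edgeR's quasi-likelihood test 8 of the 10 genes passed an adjusted p of 0.05, all higher, where 7.27% of 16074 genes tested passed as higher and 2.92% as lower (10.2% in all). Of these, 6 genes also had a log2 fold change over 2, the rule that the study wrote for a differentially expressed gene, against 4.65% of all genes called higher in this way. In the same 8 genes the lowest Lpr kidney lay above the highest Ctr kidney, a separation found as higher in 14.2% of all genes. The median log2 fold change of the 10 genes was 2.58, and the median of all genes tested was 0.03. The comparisons with Ctr share its 3 kidneys, and the same 4 Lpr kidneys enter 2 comparisons.

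Nlrp3, the sensor (chr11:59541568-59566956, plus strand, GRCm38), was at 0.431, 0.351 and 0.39 CPM in the Ctr kidneys, at 2.09, 4.22, 1.95 and 2.18 CPM in the Lpr kidneys and at 0.809, 2.03, 1.89 and 1.8 CPM in the DNase kidneys. All MRL/lpr kidneys lay above all controls, with Lpr 2 far above the other Lpr kidneys and DNase 1 far below the other DNase kidneys. Nlrp3 was 6.69-fold higher in Lpr than in Ctr (log2 fold change 2.74, SE 0.415, adjusted p = 0.00406) and was also higher in DNase (log2 fold change 2.06, SE 0.386, adjusted p = 0.0045). Pycard (chr7:127989708-127993867, minus strand) encodes ASC, the adaptor that links sensors to caspase-1. Its levels were 14.9, 12.5 and 12 CPM in Ctr, 11.4, 14.4, 23.6 and 10.8 CPM in Lpr and 10.0, 9.51, 16.8 and 11.6 CPM in DNase. The groups overlapped, and the highest value of each MRL/lpr group was in its replicate 3. Pycard had a log2 fold change of 0.21 in Lpr against Ctr (95% interval -0.46 to 0.88, adjusted p = 0.74), which fell to -0.10 without Lpr 3.

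**Figure D1:**
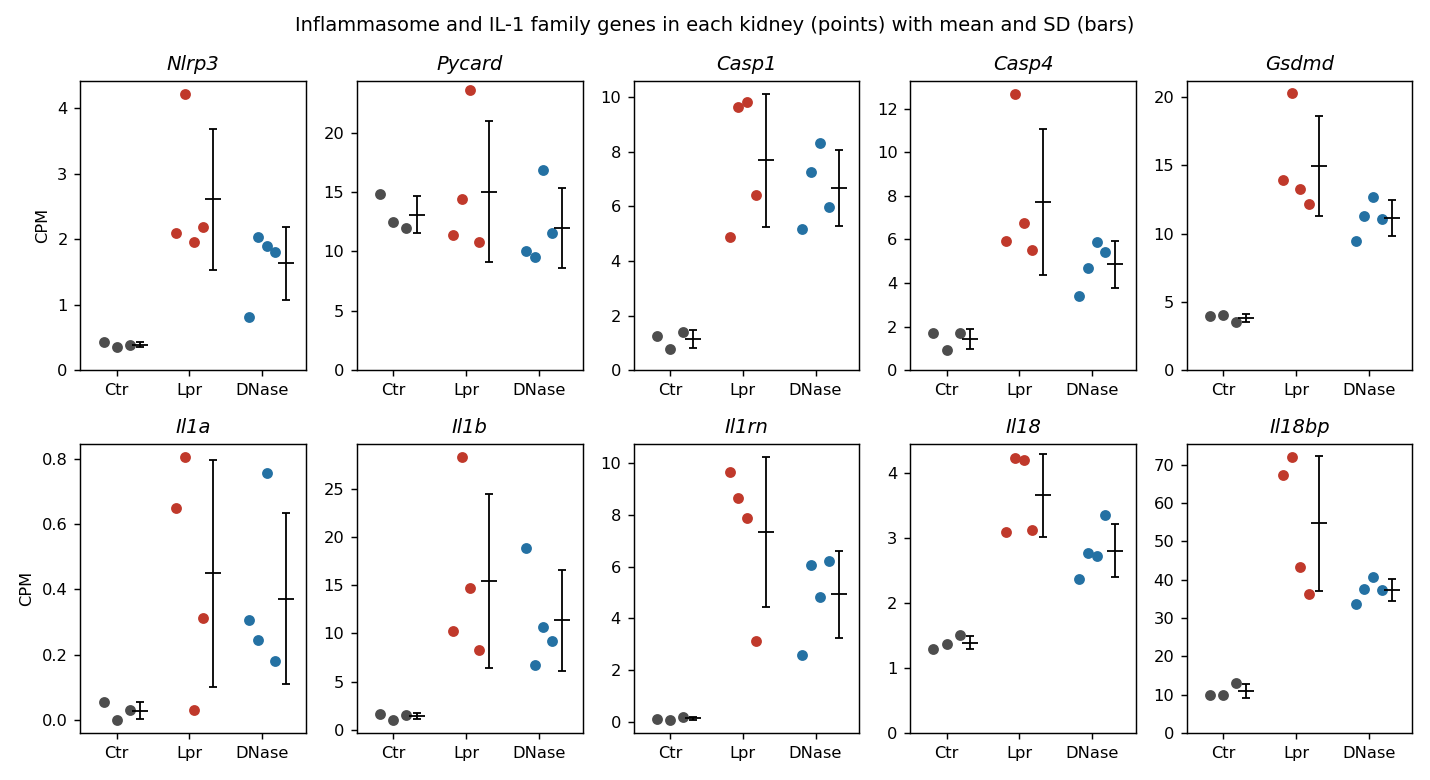
Levels of the 10 genes in CPM (vertical axis, from 0) for each kidney of the Ctr, Lpr and DNase groups (points), with the mean and SD of each group (bars). In 8 genes, all but Pycard and Il1a, every MRL/lpr kidney lies above every control.

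Casp1 and Casp4 are neighbours on chromosome 9, at chr9:5298517-5307265 and chr9:5308828-5336783 on the plus strand, with a gap of 1562 bp. Caspase-1 is the caspase of the canonical inflammasome, and caspase-4, also called caspase-11 in mice, binds bacterial lipopolysaccharide in the cytosol. Casp1 was at 1.24, 0.765 and 1.41 CPM in Ctr, at 4.89, 9.63, 9.81 and 6.4 CPM in Lpr and at 5.16, 7.26, 8.32 and 5.97 CPM in DNase. Casp4 was at 1.73, 0.924 and 1.71 CPM in Ctr, at 5.94, 12.7, 6.77 and 5.52 CPM in Lpr and at 3.4, 4.69, 5.9 and 5.43 CPM in DNase. Both genes separated the MRL/lpr kidneys from the controls, and Lpr 2 and Lpr 3 shared the top for Casp1 while Lpr 2 alone stood above the rest for Casp4. Between Lpr and Ctr, Casp1 rose 6.79-fold (log2 fold change 2.76, SE 0.378, adjusted p = 0.00252) and Casp4 rose 5.35-fold (log2 fold change 2.42, SE 0.41, adjusted p = 0.00668). In DNase both stayed above Ctr, Casp1 with a log2 fold change of 2.55 (adjusted p = 0.000183) and Casp4 with 1.74 (adjusted p = 0.0025), where only Casp1 exceeded 2. The best match between their transcripts had 66.9% identity over 417 bp.

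Gsdmd (chr15:75862327-75867408, plus strand) encodes gasdermin D, which forms the pore after cutting by either caspase. It was at 3.96, 4.05 and 3.51 CPM in Ctr, at 14, 20.3, 13.3 and 12.2 CPM in Lpr and at 9.45, 11.3, 12.7 and 11.1 CPM in DNase. The controls lay close together, and Lpr 2 was again the highest kidney. Gsdmd rose 3.92-fold in Lpr (log2 fold change 1.97, SE 0.244, adjusted p = 0.0017), just under the log2 fold change of 2, and was also higher in DNase than in Ctr (log2 fold change 1.54, SE 0.15, adjusted p = 0.000106).

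Il1a (chr2:129299610-129309972) and Il1b (chr2:129364570-129371139) lie 54.6 kb apart on the minus strand of chromosome 2. Both encode agonists of the IL-1 receptor, IL-1 alpha being active without cutting by caspase-1 and IL-1 beta needing it. Il1a had 2, 0 and 1 reads in the Ctr kidneys, 23, 31, 1 and 11 reads in Lpr and 11, 9, 30 and 7 reads in DNase. Every control was at or under the floor of 3 counts, as was Lpr 3 with its single read. Measured against the floor in each Ctr library, Il1a was at least 5.06-fold higher in Lpr and at least 4.19-fold higher in DNase, but it did not pass the test between Lpr and Ctr (adjusted p = 0.0772) and was below the count filter between DNase and Ctr. Without Lpr 3 it passed between Lpr and Ctr, at an adjusted p of 0.00922. Il1a fell below the count filter without Lpr 1, Lpr 2 or Lpr 4. It did not pass without any 1 control, with adjusted p between 0.178 and 0.224 (edgeR). The bound in Lpr was 3.72-fold without Lpr 2. Without DNase 3 the bound in DNase was 2.74-fold.

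Il1b was at 1.67, 1.05 and 1.56 CPM in Ctr, at 10.3, 28.3, 14.7 and 8.3 CPM in Lpr and at 18.8, 6.72, 10.7 and 9.22 CPM in DNase. Kidneys of the MRL/lpr groups spread widely, and Lpr 2 and DNase 1 held the highest levels. Il1b rose 10.9-fold in Lpr (log2 fold change 3.44, SE 0.488, adjusted p = 0.00299) and was higher in DNase than in Ctr as well (log2 fold change 2.98, SE 0.368, adjusted p = 0.000409). DNase 1 was thus the highest of its group for Il1b but the lowest of its group in 7 of the 10 genes.

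Il1rn (chr2:24336853-24351494, plus strand) encodes the IL-1 receptor antagonist, which occupies the receptor without signalling. It was at 0.135, 0.0956 and 0.21 CPM in Ctr, at 9.67, 8.67, 7.89 and 3.12 CPM in Lpr and at 2.59, 6.07, 4.82 and 6.23 CPM in DNase. Its level was low in every control, and Lpr 4 and DNase 1 were the lowest MRL/lpr kidneys. Il1rn had the largest fold of the 10 genes, 49.1-fold between Lpr and Ctr (log2 fold change 5.62, SE 0.55, adjusted p = 0.000685) and 32.8-fold between DNase and Ctr (log2 fold change 5.04, SE 0.447, adjusted p = 6.35e-05). Few reads in Ctr limit the size of these folds. By limma on log2(FPKM + 0.1) the log2 fold changes were 4.06 in Lpr and 3.60 in DNase.

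Il18 (chr9:50554827-50581840, plus strand) encodes IL-18, which drives interferon gamma production in T and NK cells. It was at 1.29, 1.37 and 1.5 CPM in Ctr, at 3.08, 4.22, 4.2 and 3.12 CPM in Lpr and at 2.37, 2.76, 2.72 and 3.35 CPM in DNase. The groups of MRL/lpr kidneys lay above the controls in a narrow range. Il18 showed the smallest change among the genes that passed, 2.65-fold in Lpr (log2 fold change 1.41, SE 0.277, adjusted p = 0.0135), and 1.01 on the log2 scale in DNase against Ctr (adjusted p = 0.00903). Its call between Lpr and Ctr was lost when any 1 control was left out. The adjusted p (edgeR) was 0.0800 without Ctr 1, 0.0621 without Ctr 2 and 0.0574 without Ctr 3, with log2 fold changes of 1.36, 1.40 and 1.46. Of all genes, 1639 passed with 3 controls, and 852, 911 and 915 passed in these 3 settings.

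Il18bp (chr7:102014885-102018690, minus strand) encodes a secreted protein that binds and blocks IL-18, and interferon gamma is a known inducer of it. It was at 9.76, 9.88 and 13 CPM in Ctr, at 67.2, 72, 43.2 and 36.1 CPM in Lpr and at 33.6, 37.5, 40.6 and 37.4 CPM in DNase. Lpr 1 and Lpr 2 stood above the other MRL/lpr kidneys, which lay close together. Il18bp rose 5.06-fold in Lpr (log2 fold change 2.34, SE 0.294, adjusted p = 0.00178) and remained higher in DNase than in Ctr (log2 fold change 1.78, SE 0.13, adjusted p = 2.11e-05).

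**Figure D2:**
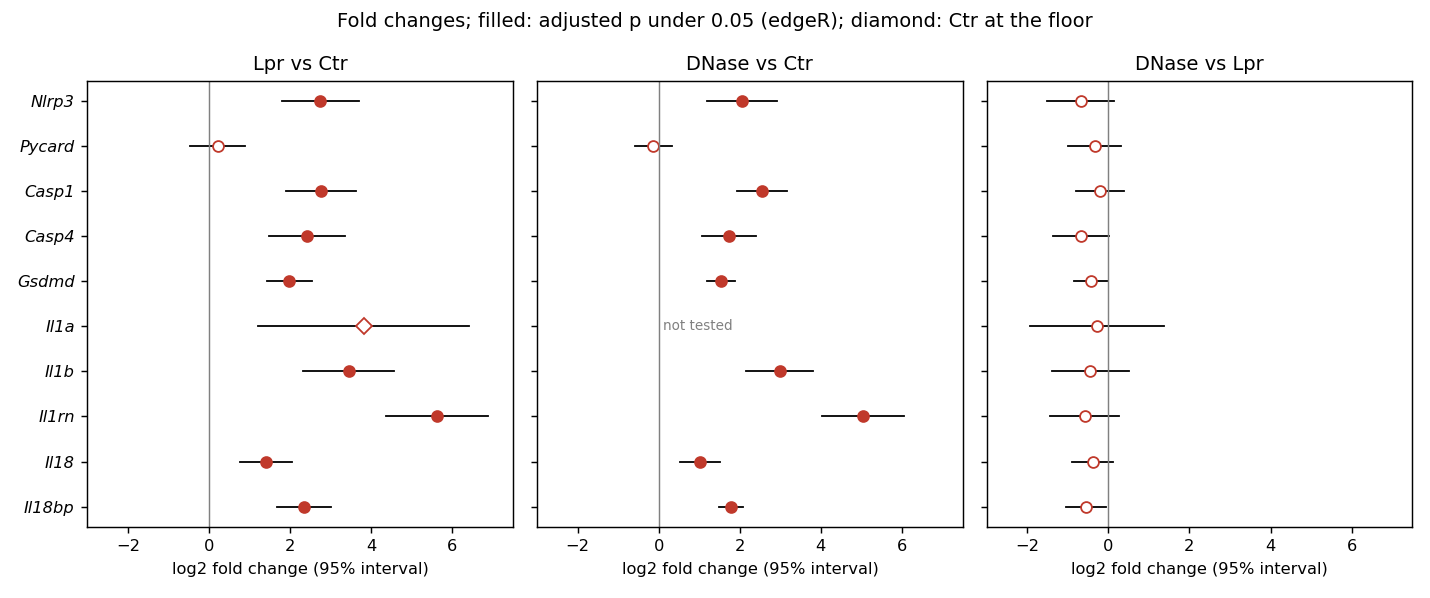
Log2 fold changes (points, horizontal axis) with 95% intervals (lines) of the 10 genes in the 3 comparisons, filled where the adjusted p was under 0.05 and with a diamond where Ctr was at the floor, so that the fitted fold is no bound. Against Ctr 8 genes are filled in each MRL/lpr group, and between DNase and Lpr none is filled.

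Some exons overlap genes on the opposite strand, and the strand setting of the counting is not given in the sources used here. The overlap was 222 bp between Il1a and Gm14023, 80 bp between Il18bp and Numa1 and 25 bp between Il1b and Il1bos, and all 3 partners are in the count table. Pycard overlaps Gm45205 over 485 bp. Reads in these stretches cannot be assigned to a strand here.

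The comparison of DNase with Lpr asks whether the genes differ after treatment. No gene of the 10 passed the test (0% of the 15832 genes tested passed), and the DNase and Lpr kidneys overlapped in each of the 10, where 2.08% of all genes did not overlap as higher and 1.68% as lower. All 10 fitted log2 fold changes were below 0, from -0.68 in Nlrp3 to -0.21 in Casp1, with a median of -0.43 beside -0.02 over all genes, of which 47.1% were fitted above 0. At an unadjusted p of 0.05, 1 of the 10 genes passed, Il18bp (log2 fold change -0.55, unadjusted p = 0.0306, adjusted p = 0.854), where 5.6% of all genes did. This number depended on single Lpr kidneys. It was 3 without Lpr 3 and 4 without Lpr 4, where 1618 of 16006 and 1487 of 16015 genes were under 0.05. Without Lpr 2 it was 0, where 720 of 16021 genes were. By DESeq2 0 of the 10 genes passed, with 3 at an unadjusted p of 0.05, where 5.36% of all genes were. Of 24885 genes with a p-value by DESeq2, 17 (0.0683%) passed, and 18603 of them had an adjusted p.

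The 95% intervals give the range of differences these mice leave possible. For Gsdmd the 95% interval of the log2 fold change was -0.86 to 0.0023, for Casp4 -1.35 to 0.01 and for Nlrp3 -1.5 to 0.15. Casp1 had an interval of -0.81 to 0.39 and Il1b, with its spread between kidneys, one of -1.39 to 0.50. The intervals of Il1rn (-1.43 to 0.27) and Il18 (-0.89 to 0.11) also reached both sides of 0. Il18bp had an interval of -1.05 to -0.06, the only one of the 10 that did not include 0. In Il1a and Il1b the direction depended on Lpr 2, without which their log2 fold changes were 0.16 and 0.015, and 8 of 10 genes stayed below 0. In Nlrp3, Casp4, Gsdmd and Il18, 3 of the 4 DNase kidneys lay below the lowest Lpr kidney, while in Casp1 and Il1a none did. The share of all genes with such a partial separation was not computed, so these counts cannot be read as a fall.

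Between DNase and Ctr, 8 of the 9 genes tested passed, all higher, where 13.1% of 16100 genes passed as higher and 8.61% as lower (21.7% in all). Of these 4 had a log2 fold change over 2, Nlrp3, Casp1, Il1b and Il1rn, against 4.56% of all genes. All 4 DNase kidneys lay above all Ctr kidneys in the 8 genes that passed, a separation found in 18.2% of all genes, and the median log2 fold change of the 9 genes was 1.78. Pycard was the exception, with a log2 fold change of -0.13 (adjusted p = 0.709).

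**Figure D3:**
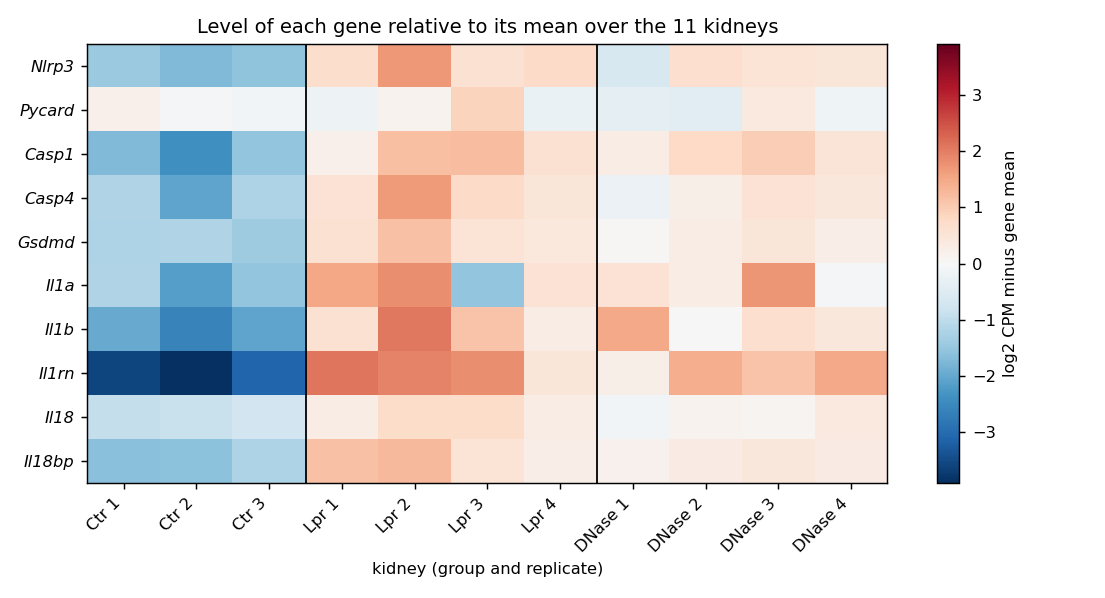
Log2 CPM of each gene (rows) in each kidney (columns) minus the gene's mean over the 11 kidneys, in colour from blue (below the mean) to red (above it). The 3 control columns are blue in 9 rows, the row of Pycard is near white, and Lpr 2 holds the highest value in 7 of the 10 genes.

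Per length of transcript the order of the genes also differed between the groups. In FPKM, which divides by gene length, Pycard was the highest in Ctr (5.93 ± 0.742, SD, n = 3), followed by Il18bp at 2.28 and Gsdmd at 1.88, and these 3 did not overlap with their neighbours in the order. Casp4, Il1b, Casp1 and Il18 followed between 0.517 and 0.946 FPKM, each overlapping with the next, and Nlrp3 (0.0926), Il1rn (0.0508) and Il1a (0.0138) closed the order. In Lpr the highest mean FPKM was that of Il18bp (11.9 ± 4.00, SD, n = 4), then Il1b (8.18 ± 5.01), Gsdmd (7.61 ± 2.07) and Pycard (6.96 ± 2.43), whose ranges overlapped from each to the next. Il1rn moved from ninth place in Ctr to seventh in Lpr, with 2.6 ± 1.02 FPKM. In DNase the first 4 places were the same as in Lpr, with Il18bp at 8.33 ± 0.667 FPKM (SD, n = 4).

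The balance of antagonist and cytokine was measured in each kidney as the ratio of their levels per length. The ratio of Il1rn to Il1b was 0.0592, 0.0703 and 0.0962 in Ctr, 0.632, 0.206, 0.362 and 0.253 in Lpr and 0.0932, 0.608, 0.303 and 0.455 in DNase. All Lpr kidneys exceeded all controls, and DNase 1 lay within the range of the controls. The mean log2 ratio differed by 2.17 between Lpr and Ctr (p = 0.0571 in a two-sided exact permutation test, which 3 against 4 kidneys cannot go below), by 2.01 between DNase and Ctr (p = 0.114, exact) and by -0.15 between DNase and Lpr (p = 0.857, exact). Without DNase 1 the last difference was 0.40 and without Lpr 1 it was 0.16. On the deposited FPKM + 0.1, a pseudocount above the mean FPKM of Il1rn in Ctr, the differences from Ctr were smaller, 0.89 for Lpr (p = 0.114, exact) and 0.76 for DNase (p = 0.343, exact).

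For Il18bp to Il18 the ratio was 4.20, 4.02 and 4.84 in Ctr, 12.2, 9.58, 5.77 and 6.49 in Lpr and 7.94, 7.59, 8.35 and 6.26 in DNase. All MRL/lpr kidneys exceeded all controls, and the DNase values lay inside the range of Lpr. Differences of the mean log2 ratio were 0.91 for Lpr against Ctr and 0.79 for DNase against Ctr (each p = 0.0571, exact permutation test, two-sided), and -0.12 for DNase against Lpr (p = 0.686, exact), which turned to 0.076 without Lpr 1. After adjustment over the 6 ratio tests the p-values were between 0.114 and 0.857 (exact permutation tests), so that no ratio passed, and the comparisons with 3 controls could not have reached 0.05.

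**Figure D4:**
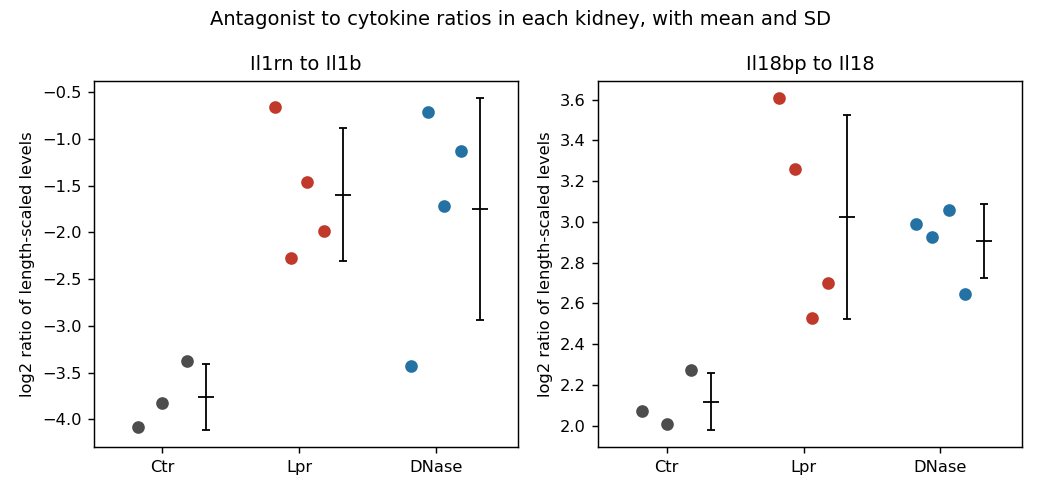
Log2 ratio of Il1rn to Il1b and of Il18bp to Il18, both as levels per length (vertical axes), in each kidney (points) with the mean and SD of each group (bars). All Lpr kidneys lie above the controls for both ratios, and 1 DNase kidney lies among the controls for Il1rn to Il1b.

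Other genes of the pathway were read from lists by function. The counts below stand beside 7.27% of all genes tested that passed as higher between Lpr and Ctr. Of the other sensors, 3 of 10 tested rose in Lpr and none fell. These were Aim2, a sensor of cytosolic DNA (log2 fold change 3.42, SE 0.445, adjusted p = 0.00206), Mefv, which encodes pyrin (log2 fold change 3.45, SE 0.584, adjusted p = 0.00663), and Nlrp1b (log2 fold change 2.23, SE 0.472, adjusted p = 0.0186). Aim2 was at 0.404, 0.255 and 0.39 CPM in Ctr, at 3.31, 5.96, 2.28 and 3.43 CPM in Lpr and at 3.37, 3.71, 3.48 and 2.91 CPM in DNase. The MRL/lpr groups overlapped widely in this gene and both lay above the controls.

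Among the other caspases, gasdermins and the rupture protein Ninj1, 1 of 7 genes tested passed, where 7.27% of all genes passed as higher. This was Casp12 (log2 fold change 2.26, SE 0.452, adjusted p = 0.0146), with the highest level in Lpr 2. Of the triggers and partners of inflammasomes, 3 of 7 rose, Cybb, a subunit of the phagocyte NADPH oxidase (log2 fold change 2.73, SE 0.366, adjusted p = 0.00232), Panx1, a channel that releases ATP (log2 fold change 2.12, SE 0.43, adjusted p = 0.0155), and Pstpip1, a partner of pyrin (log2 fold change 1.89, SE 0.413, adjusted p = 0.0213). P2rx7, the ATP-gated channel upstream of NLRP3, had a log2 fold change of 1.5 (adjusted p = 0.0645), and Nek7, which binds NLRP3, one of -0.14 (adjusted p = 0.62). Both were named after their values were seen.

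Of the other ligands of the IL-1 family, 2 of 3 tested rose. Il33, an alarmin of stromal and epithelial cells, was among them (log2 fold change 1.19, SE 0.289, adjusted p = 0.033). Il36a, listed as Il1f6, had 1, 1 and 0 reads in Ctr, 8, 135, 248 and 11 in Lpr and 1, 20, 10 and 19 in DNase. Controls were at the floor, Lpr 2 and Lpr 3 held most of the reads, and Il1f6 was at least 32-fold higher in Lpr than the floor of Ctr (adjusted p = 0.0342), or at least 15.2-fold without Lpr 3. Between DNase and Lpr its log2 fold change was -3.12 (unadjusted p = 0.0194, adjusted p = 0.823), and the groups overlapped.

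All 8 IL-1 family receptors were tested, and 1 rose in Lpr, where 7.27% of all genes did. This was Il18rap, the accessory chain of the IL-18 receptor (log2 fold change 2.04, SE 0.392, adjusted p = 0.012). Il18r1, the chain that binds IL-18, had a log2 fold change of 1.72 (adjusted p = 0.111) and Il1r2, the decoy receptor of IL-1, one of 2.47 (adjusted p = 0.108). The signalling receptor Il1r1 was at 13 ± 2.89 CPM (SD, n = 3) in Ctr and 10.7 ± 1.83 CPM (SD, n = 4) in Lpr, with a log2 fold change of -0.27 (adjusted p = 0.553). Il1rap, its accessory chain, and Sigirr, an inhibitory receptor, had log2 fold changes of 0.21 and 0.13. The receptor of IL-33, Il1rl1, and that of IL-36, Il1rl2, had log2 fold changes of 0.54 and 0.43, and none of the last 5 passed. Between DNase and Ctr, where 13.1% of all genes passed as higher, 3 receptors rose, Il18r1 (1.91), Il18rap (1.53) and Il1rap (0.52 on the log2 scale).

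**Figure D5:**
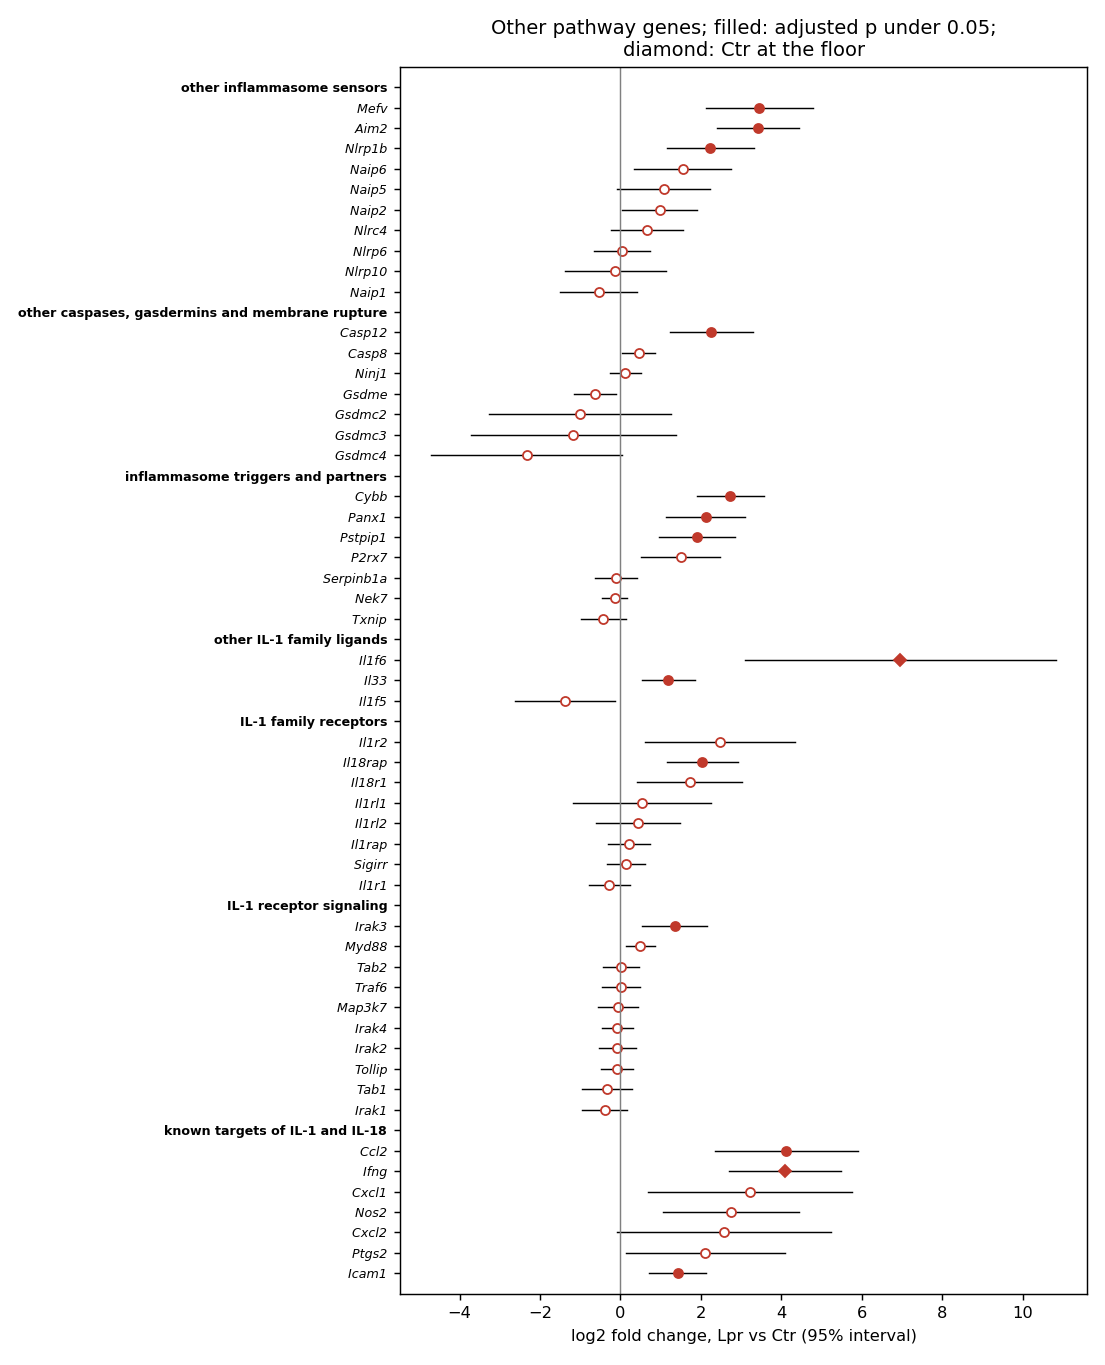
Log2 fold changes between Lpr and Ctr (points, horizontal axis) with 95% intervals (lines) of the other pathway genes, by list, filled where the adjusted p was under 0.05 and with a diamond where Ctr was at the floor. Among 10 signalling genes 1 is filled, and among 7 known targets 3 are filled, where 7.27% of all genes passed as higher.

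Downstream of the receptors, 1 of 10 signalling genes rose in Lpr, near the 7.27% of all genes that did. This was Irak3, an inhibitory kinase homologue (log2 fold change 1.34, SE 0.355, adjusted p = 0.0469). Of 7 known targets of IL-1 and IL-18 tested, 3 rose, Ccl2, a chemokine for monocytes (log2 fold change 4.12, SE 0.782, adjusted p = 0.0113, and log2 fold change 3.19 without Lpr 3, which held the highest level), Icam1, an adhesion molecule (log2 fold change 1.42, SE 0.31, adjusted p = 0.0211), and Ifng. Ifng was at 0.0809, 0.0319 and 0.030 CPM in Ctr, at 1.1, 0.521, 1.24 and 0.651 CPM in Lpr and at 0.39, 0.759, 1.08 and 1.21 CPM in DNase. All controls were at the floor of 3 counts, and Ifng was at least 9.90-fold higher in Lpr and at least 9.69-fold higher in DNase (adjusted p = 0.00391 and 0.00144). No gene of these lists passed between DNase and Lpr, where 0 of all genes did. Of the 14 genes of these lists that passed between Lpr and Ctr, 4 did so with any 1 kidney left out, namely Aim2, Mefv, Cybb and Ifng. The other 10 did not. Among all genes 1639 passed with every kidney in, and 852, 911 and 915 passed without Ctr 1, Ctr 2 and Ctr 3. Without 1 Lpr kidney between 1184 and 2824 passed. The share of all genes that kept their call was not computed. Nlrp1b, Casp12, Panx1, Pstpip1, Il1f6 and Ccl2 lost their call without any 1 of the controls, with adjusted p between 0.0530 and 0.134. Il1f6 fell below the count filter without Lpr 2, Lpr 3 or Lpr 4. Icam1 lost it without any 1 control or Lpr 1 (0.0539 to 0.102) and Il33 without any 1 control, Lpr 1 or Lpr 2 (0.0683 to 0.136). Il18rap lost it without Ctr 1 or Ctr 2 (0.0636 to 0.0744), and Irak3 without Ctr 1, Ctr 2, Lpr 1, Lpr 2 or Lpr 4 (0.0954 to 0.187).

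Markers of several immune cell types were also higher in the MRL/lpr kidneys. Against Ctr, 7.27% of all genes tested passed as higher in Lpr and 13.1% in DNase. All 10 macrophage and monocyte markers rose in Lpr and in DNase against Ctr, and their summed level was 202 to 280 CPM in Ctr, 1274 to 2565 CPM in Lpr and 998 to 1879 CPM in DNase. The highest of these sums was in Lpr 2 and the lowest MRL/lpr sum in DNase 1. Neutrophil markers summed to 2.49 to 6.55 CPM in Ctr, 16.4 to 46.1 in Lpr and 14.9 to 27.6 in DNase, with 3 of 6 tested higher in Lpr, and 2 of the list's 10 genes at 0 in all controls. T cell markers, 8 of 8 higher in Lpr, summed to 6.12 to 11.4 CPM in Ctr, 53.3 to 145.5 in Lpr and 55.3 to 94.3 in DNase. B cell and plasma cell markers summed to 10.8 to 32.7 CPM in Ctr, 162 to 735 in Lpr and 298 to 1037 in DNase, with 4 of 7 tested higher in Lpr. Dendritic cell markers summed to 10.9 to 14.2, 14.3 to 28.1 and 22.4 to 25.0 CPM in the same order. Of these 7 genes 3 passed as higher in Lpr, and 2 were fitted lower without passing. In DNase against Ctr 4 passed as higher and 1 as lower. Cd209a had a mean of 1.25 CPM in Ctr, 0.366 in Lpr and 0.118 in DNase. Between DNase and Lpr no marker passed. The fitted log2 fold changes were below 0 in all 10 macrophage and monocyte markers and in all 7 neutrophil markers tested. In T cell markers 6 of 8 were below 0 and 2 above. All 8 B cell and plasma cell markers were above 0, and the dendritic cell markers tested split 3 to 3. The part of the cell makeup in the changes of the 10 genes was not tested.

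Genes with the most similar pattern were found for 4 genes by the mean absolute difference of log2 CPM, each gene centred on its own mean, over 11 kidneys and 13261 genes. For Nlrp3 they were C5ar1 (0.20), H2-Eb1 (0.216) and Selplg (0.220), and for Casp1 they were Lpcat2 (0.155), Cd48 (0.179) and Siglece (0.207). Il1b came nearest to Ptpn22 (0.307), Ccl19 (0.332) and Milr1 (0.341), and Il18 to Cd47 (0.101), Tifa (0.113) and Nmi (0.122). These distances hold the difference between the strains and the depth of shared libraries, and genes with small changes lie nearer to each other.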

How the data were processed

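Whole-kidney RNA was sequenced from 11 mice. The authors deposited raw counts of reads per gene, made with HTSeq according to the methods, and FPKM values, which the authors derived from those counts by dividing by library total and gene length. The submitters' processing notes also name fastp, DESeq2, R 3.2.0 and mm10, and the aligner and annotation are not given in the sources used here. The number of unused columns was 0.

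Groups were compared in pairs with edgeR 4.0.16 (R 4.3.3), by the quasi-likelihood test after filterByExpr (minimum count 10) and TMM, with Benjamini-Hochberg adjustment over all genes tested. DESeq2 1.42.0, limma 3.58.1 on log2(FPKM + 1) or log2(FPKM + 0.1), other scalings, no filter, all kidneys in 1 fit, a replicate block and each kidney left out were alternatives. Ratios used (count + 0.5) per length. The procedure was tested on simulated data. Gene positions came from GENCODE for GRCm38, the assembly of mm10, and transcript copies were searched with blastn 2.17.0+. Figures used matplotlib 3.10.9.

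All 10 genes are named, with every tested IL-1 family receptor and, from each other list, up to 5 genes that passed between Lpr and Ctr with the smallest p. The 10 genes and all lists were chosen with earlier results of these data known. P-values measure the spread between these mice, of which each gave 1 library. Between 33469858 and 38460873 counts per library limit the precision of rare transcripts such as Il1a.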

Additional observations from a re-analysis of the deposited data

Results flagged for a closer look

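A sample far from the others of its group was found in 2 of 24 groups of 4 kidneys checked, where chance gives about 1.2. Both concern Nlrp3. Lpr 2, at 4.22 CPM, was separated from the next Lpr kidney by 0.856 of the group's whole range in log2 CPM. DNase 1, at 0.809 CPM, was separated from the next DNase kidney by 0.868 of the range, also in log2 CPM. Summed macrophage and monocyte markers were also highest in Lpr 2 and lowest among MRL/lpr kidneys in DNase 1, and their part in these values was not tested.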

How the results depend on the processing

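Recomputed under the alternatives, 135 of 143 log2 fold changes of the 10 genes between Lpr and Ctr kept direction and side of the threshold. So did 156 of 158 between DNase and Lpr and 131 of 133 between DNase and Ctr. Between DNase and Lpr 0 of all genes passed in each edgeR and limma setting, and 17 did by DESeq2. The side of the threshold was therefore nearly fixed for those 158, and only their direction could readily change. Of the ratio differences, 59 kept their direction, while 3 between DNase and Lpr turned. With 3 controls, 1 kidney left out or a replicate block, the exact test could not reach 0.05. In those settings the side of the threshold was therefore fixed in advance. The number of the 10 genes that passed stayed between 7 and 9 for Lpr against Ctr, at 0 for DNase against Lpr and between 6 and 9 for DNase against Ctr. Between 8 and 10 of them were tested in a setting. For Lpr against Ctr the number over all genes ran from 852 of 16376 (without Ctr 1) to 2824 of 15855 (without Lpr 3). For DNase against Ctr it ran from 1869 of 16100 (replicate block) to 4239 of 24791 (DESeq2), and for DNase against Lpr from 0 to 17. Il1a passed between Lpr and Ctr under DESeq2 (adjusted p = 0.0180) and with all 11 kidneys in 1 fit (0.0349, edgeR). Il1a, below the filter between DNase and Ctr, had an adjusted p of 0.0082 there by DESeq2 and of 0.0137 by edgeR without a filter, but of 0.0642 with all 11 kidneys in 1 fit, and without 1 control it ranged from 0.0421 to 0.0579. With 1 kidney left out at a time, Pycard ranged from -0.10 to 0.35 (log2) between Lpr and Ctr. Between DNase and Lpr, Il1a ranged from -0.88 to 0.16, Il1b from -0.80 to 0.015, the log2 ratio of Il1rn to Il1b from -0.50 to 0.40 and that of Il18bp to Il18 from -0.28 to 0.076. The cause was not tested. Deviations of same-numbered kidneys correlated between -0.28 and 0.16. Kidneys of different numbers were not compared, so this cannot settle whether replicate numbers pair the kidneys. With the replicate block 7, 0 and 6 of the 10 genes passed for Lpr against Ctr, DNase against Lpr and DNase against Ctr. In the same order 1268 of 16074, 0 of 15832 and 1869 of 16100 genes passed, against 1639, 0 and 3493 without the block. Il18 lost its call against Ctr in Lpr (adjusted p = 0.0693, edgeR with the block) and in DNase (0.0972). Nlrp3 lost it in DNase (0.0520), and Il18rap (0.0512) and Irak3 (0.157) between Lpr and Ctr. Il18r1 and Il1r2 passed between Lpr and Ctr under DESeq2 (0.0166 and 0.0111) and with all 11 kidneys in 1 fit (0.0312 and 0.0418, edgeR), and Il1f6 did not pass by limma (0.239 and 0.0792). Limma tested 8 of the 10 genes between Lpr and Ctr and 9 between DNase and Lpr, since the others had a low mean FPKM. Few reads limit Il1a and, in Ctr, Il1rn.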
